A study of Homo sapiens with 36 samples.

Results

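The genes described here are 10 transcripts read as output of the extracellular signal-regulated kinase (ERK) branch of the mitogen-activated protein kinase (MAPK) pathway: DUSP4, DUSP5, DUSP6, SPRY2, SPRY4, SPRED1, PHLDA1, EGR1, FOSL1 and ETV5. They were chosen by name, by their place in the pathway and with earlier results of these data known, so their counts beside those of all genes are descriptions. They were found by Ensembl identifier among the 57771 genes of the deposited count table. All 10 passed the filter on low counts, and the lowest count of any of them in any library was 121.

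When growth factors or insulin engage their receptors, RAS, RAF and MEK kinases activate ERK, which phosphorylates transcription factors and so turns on immediate early genes such as EGR1 and FOSL1. ERK also raises transcription of its own brakes: the dual-specificity phosphatases (DUSPs) remove the activating phosphates from MAP kinases, and Sprouty (SPRY) and SPRED proteins act upstream, on RAS and RAF. In liver cells the insulin receptor feeds both this cascade and the AKT pathway that controls glucose and lipid metabolism.

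The study measured polyadenylated RNA by strand-specific sequencing in HepG2, a human liver cancer line, in which the gene for the insulin-like growth factor 1 receptor (IGF1R) had been knocked out. All 36 libraries carry that knockout, so no unedited cells were compared. The 4 groups held 9 libraries each: insulin-resistant medium with insulin stimulation, insulin-resistant medium left untreated, normal medium with insulin stimulation, and normal medium left untreated. Stimulated cells received human insulin at 3 nM over 18 h. Insulin-resistant medium held 1 nM insulin, palmitic, linoleic and oleic acid at 0.5 mM and 20 mM glucose, and cells stayed in it for 72 h. Whether that 1 nM insulin was withdrawn before stimulation is not given in the labels. A time of 18 h is late for immediate early genes, so the values below are levels long after the first minutes of a response.

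Library totals, in units of 1000000 counts, ran from 26.6 to 116.8, with a median of 64.7. Levels are given as counts per 1000000 (CPM) of a library total scaled by the trimmed mean of M-values (TMM), which allow a gene to be compared between libraries but not with another gene, because they are not divided by transcript length. IGF1R itself was read at 65.3 to 146.8 CPM. Transcript level alone does not check an edit that may leave the messenger RNA in place, and without unedited cells the labels could not be checked this way. The hepatocyte markers ALB and HNF4A were detected in every library. COL1A1, a collagen gene of mesenchymal cells, split the libraries. It lay between 0.784 and 1.70 CPM of the library total in 6 of them, normal-medium insulin replicates 4 to 6 and resistant-medium untreated replicates 1 to 3, and between 8071 and 31870 CPM in the other 30. In those 6 the 21 stromal markers summed to 197 to 237 CPM, with DCN, POSTN and FAP at 0, against 27683 to 87051 CPM in the 30. For the 18 hepatocyte markers the sum was 32348 to 37291 CPM in those 6, against 11926 to 29470 CPM elsewhere. In bulk RNA, fewer cells of a type and less RNA per cell cannot be told apart. The labels name only the HepG2 line and do not explain the stromal transcripts of the 30 libraries. Neither the 30 nor the 6 are therefore taken as the cleaner set. The fold changes of the members and the counts of calls are therefore given over all 36 libraries and again over the 30. Levels are given over all 36 unless stated otherwise. Fold changes come from a fit with a term for batch, a date in the labels. Levels are not adjusted for batch, so a fold change can differ from the levels beside it, even in sign.

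Replicates also came in sets of 3 by library position: 1 to 3, 4 to 6 and 7 to 9. For DUSP4 the standard deviation of log2 CPM was 0.136 within sets and 0.834 between the set means of a group, and for FOSL1 it was 0.152 within sets and 0.816 between them. For ETV5 the same values were 0.082 and 0.191. Libraries of a set thus resembled each other more than they resembled the rest of their group. The labels call replicates biological but do not say whether a set shares a culture, and p-values that count 9 libraries per group rest on their independence. Counts of calls with each set summed to 1 library are given beside the results.

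The promoters of 2 members are shown because each holds the recognition sequence of a known effector of the pathway. Promoter sequences of 6 of the 10 members, from 250 bases before the annotated start to 50 bases from it, were taken from RefSeq (build GRCh38.p14). The sequences are written 5′ to 3′ on the strand of the gene. In DUSP6, at chr12:89352452-89352751 on the minus strand, the capitals mark matches to an octamer bound by Capicua (CIC), a repressor that ERK signalling relieves. In EGR1, at chr5:138465229-138465528 on the plus strand, the capitals mark CArG boxes, the site of serum response factor, which recruits ERK-phosphorylated ETS proteins.
DUSP6: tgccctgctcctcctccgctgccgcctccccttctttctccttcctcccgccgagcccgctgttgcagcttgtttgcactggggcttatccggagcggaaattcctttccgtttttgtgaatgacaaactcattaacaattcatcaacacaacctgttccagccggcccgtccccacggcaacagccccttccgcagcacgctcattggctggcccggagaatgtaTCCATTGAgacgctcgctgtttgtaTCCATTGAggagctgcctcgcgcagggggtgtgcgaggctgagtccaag
EGR1: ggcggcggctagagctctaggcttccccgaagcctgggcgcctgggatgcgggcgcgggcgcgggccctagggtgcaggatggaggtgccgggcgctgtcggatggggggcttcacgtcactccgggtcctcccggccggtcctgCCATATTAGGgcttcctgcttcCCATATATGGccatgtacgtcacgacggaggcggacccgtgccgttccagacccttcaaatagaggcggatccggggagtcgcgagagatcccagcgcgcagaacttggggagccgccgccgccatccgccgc

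Both strands were searched for 4 motifs. The CIC octamer was taken as TGAATGAA, TGAATGGA, TCAATGAA or TCAATGGA, and 3.77% of the 35116 promoters in the table hold at least 1 match. The DUSP6 promoter holds it 2 times, written on the other strand, beginning 24 bases before and 1 base after the annotated start. A CArG box occurs in 1.29% of promoters, and the EGR1 promoter holds 2, beginning 105 and 83 bases before the start. The EGR1 promoter also holds 2 matches to the cyclic AMP response element core TGACG, a motif found in 24.6% of promoters, and SPRY4 and the most upstream of 3 annotated SPRY2 promoters hold 1 each. The AP-1 site TGANTCA occurs in 7.71% of promoters and in none of those read for the members. A match describes letters in a window and does not show that a factor was bound there.

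The first comparison asked what 18 h of insulin did in normal medium. The feedback phosphatase DUSP6, the RAS-RAF inhibitor SPRY4, PHLDA1 and EGR1 were higher in insulin-stimulated cells, with log2 fold changes of 0.82 to 1.63 over 36 libraries and 0.63 to 1.22 without the 6 low-COL1A1 libraries. SPRED1 and ETV5 rose by less. No member was lower. In edgeR's quasi-likelihood test with Benjamini-Hochberg adjustment, 6 of 10 members were higher and 0 lower over 36 libraries, where 24.9% of all genes tested were higher and 10.2% lower. In the remaining 30 libraries the numbers were again 6 and 0, where 15.4% of genes were higher and 18.1% lower, with DUSP5 called in place of ETV5. The median log2 fold change of the members was 0.54, against 0.03 for all genes, and over the 30 libraries 0.63, against -0.01. With relative log expression (RLE) factors in place of TMM, 3452 genes were higher and 2434 lower, against 4484 and 1843 with TMM, and 4 members passed. Beside these values, 2 of the 18 hepatocyte markers were higher and 3 lower over 36 libraries, and 0 higher and 13 lower over 30. Of the 21 stromal markers 0 were called over 36 libraries, at a median of -0.59, and 1 was higher over 30, at a median of -0.12. Their part in the members' values was not tested.

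DUSP6, the cytoplasmic phosphatase of ERK1 and ERK2, had 80.9, 95.3 and 120.3 CPM as lowest, median and highest level in insulin-stimulated cells, against 40.5, 54.0 and 71.4 CPM in untreated cells. The groups did not overlap, which held for 6.63% of all genes in that direction and for 7.54% over the 30 libraries, where DUSP6 again did not overlap. The means were 95.9 ± 13.2 and 55.1 ± 8.92 CPM (SD, n = 9 each), a log2 fold change of 0.82 ± 0.11 (SE), adjusted p = 1.71e-07. Without the low-COL1A1 libraries the log2 fold change was 0.63 ± 0.09, adjusted p = 4.47e-06. Within the single batches, which the labels date 22 April, 11 April and 24 May without saying which step they mark, it was 0.73, 0.86 and 0.65, with adjusted p of 0.0513, 0.0372 and 0.00936. In normal medium these batches hold only 5, 2 and 2 stimulated and 4, 2 and 3 untreated libraries. Each batch includes a stimulated library with low COL1A1.

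DUSP5, the nuclear ERK phosphatase, had 7.78, 17.6 and 31.7 CPM in insulin-stimulated cells, against 7.11, 12.02 and 23.7 CPM in untreated cells. The ranges overlapped, with stimulated replicates 1, 3 and 9 above every untreated library, at 28.9, 31.7 and 31.5 CPM. The log2 fold change of 0.45 ± 0.22 did not pass over 36 libraries, adjusted p = 0.122, and 0.64 ± 0.21 did over 30, adjusted p = 0.018, a call that was lost without insulin-stimulated replicate 2. DUSP4, a nuclear phosphatase of ERK, JNK and p38, had 4.00, 11.3 and 13.3 CPM in insulin-stimulated cells, against 2.88, 8.72 and 10.2 CPM in untreated cells. Its log2 fold change of 0.47 ± 0.35 did not pass, adjusted p = 0.342, nor did 0.71 ± 0.38 over the 30 libraries, adjusted p = 0.157. Its spread lay between sets, with untreated replicates 7 to 9 at 2.88 to 3.58 CPM and replicates 1 to 6 at 8.50 to 10.2 CPM.

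SPRY4, an inhibitor of receptor signalling to RAS and RAF, had 42.4, 75.8 and 98.6 CPM in insulin-stimulated cells, against 28.9, 32.9 and 59.6 CPM in untreated cells. The ranges overlapped because insulin-stimulated replicates 7 to 9 were low, at 42.4 to 56.7 CPM, and untreated replicates 1 to 3 were high, at 57.5 to 59.6 CPM. The log2 fold change was 0.84 ± 0.16, adjusted p = 7.53e-05, and over the 30 libraries 0.65 ± 0.20, adjusted p = 0.0104. Without insulin-stimulated replicate 2 the value over 30 libraries was 0.50, adjusted p = 0.0717. Within 22 April, 11 April and 24 May the log2 fold change was 0.61, 0.47 and 1.22, called in the last of these batches.

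SPRY2, its paralogue, had 10.6, 18.3 and 35.4 CPM in insulin-stimulated cells, against 9.51, 12.9 and 28.2 CPM in untreated cells, a log2 difference of 0.22 ± 0.24 that did not pass, adjusted p = 0.531. In the 30 libraries it was 0.35 ± 0.25, adjusted p = 0.31. Replicates 1 to 3 were the highest of the untreated group, at 26.4 to 28.2 CPM, and of the stimulated libraries only replicates 1 and 3 were higher. SPRED1, which brings neurofibromin to RAS, had 41.4, 58.7 and 68.0 CPM in insulin-stimulated cells, against 39.1, 47.2 and 51.8 CPM in untreated cells. Its log2 fold change of 0.25 ± 0.10, adjusted p = 0.0468, was lost in 35 of the 36 fits that left out 1 library, and with the replicate number as a block it was 0.25, adjusted p = 0.0537. Among the 30 libraries it was 0.26 ± 0.05, adjusted p = 0.000448, and was kept in all 30 fits that left out 1 library.

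PHLDA1, a pleckstrin homology protein induced by ERK and by growth factors, had the largest change of the members. Its level was 251.0, 318.2 and 580.9 CPM in insulin-stimulated cells, against 88.8, 126.4 and 168.5 CPM in untreated cells, without overlap. The means were 391.8 ± 132.0 and 128.2 ± 25.4 CPM (SD, n = 9 each), a log2 fold change of 1.63 ± 0.16, adjusted p = 1.45e-09. Of the stimulated libraries, the 3 with low COL1A1 were the highest, at 502.2 to 580.9 CPM. Without them the range was 251.0 to 420.4 CPM and the log2 fold change 1.22 ± 0.10, adjusted p = 1.81e-10. Within 22 April, 11 April and 24 May it was 1.37, 1.71 and 1.77, each called. The low-COL1A1 stimulated libraries in these batches were replicates 5, 6 and 4, at 502.2, 579.1 and 580.9 CPM. PHLDA1 was the only member called in this comparison when each set of 3 was summed, at 1.51, adjusted p = 0.0295, beside 3.48% of all genes.

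Among the transcription factors, EGR1, the zinc-finger factor of the immediate early response, had 39.7, 45.9 and 87.5 CPM in insulin-stimulated cells, against 14.2, 18.1 and 74.1 CPM in untreated cells. All 9 stimulated libraries exceeded the 6 untreated libraries of replicates 1 to 3 and 7 to 9, which reached 18.8 CPM at most. Untreated replicates 4 to 6 stood apart at 40.7 to 74.1 CPM, and these 3 were the untreated normal-medium libraries of the 24 May batch. The log2 fold change was 1.18 ± 0.28, adjusted p = 0.000916, and 1.11 ± 0.26 over 30 libraries, adjusted p = 0.00119. Within 22 April it was 1.52 and within 11 April 1.76, and within 24 May it was -0.24.

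FOSL1, the AP-1 subunit FRA1, had 39.0, 57.6 and 138.4 CPM in insulin-stimulated cells, against 14.0, 30.8 and 99.8 CPM in untreated cells. The log2 difference of 0.61 ± 0.34 did not pass, adjusted p = 0.186, nor did 0.61 ± 0.42 over the 30 libraries, adjusted p = 0.287. With the replicate number as a block it was 0.79 over 36 libraries, adjusted p = 0.0191. With the 30 libraries the block gave 8 calls in place of 6, where it called 32.3% of all genes, against 33.4% without it, with FOSL1 at 0.66, adjusted p = 0.0107, and SPRY2 at 0.40, adjusted p = 0.0161, added. FOSL1 also passed without untreated replicate 2, at 0.88, adjusted p = 0.0409. ETV5, an ETS factor of the PEA3 group, had 58.7, 76.2 and 90.4 CPM in insulin-stimulated cells, against 52.8, 64.2 and 79.5 CPM in untreated cells. Its log2 fold change of 0.22 ± 0.07, adjusted p = 0.0184, was lost in 28 of 36 fits that left out 1 library and was 0.08 over the 30 libraries, adjusted p = 0.581.

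**Figure D1:**
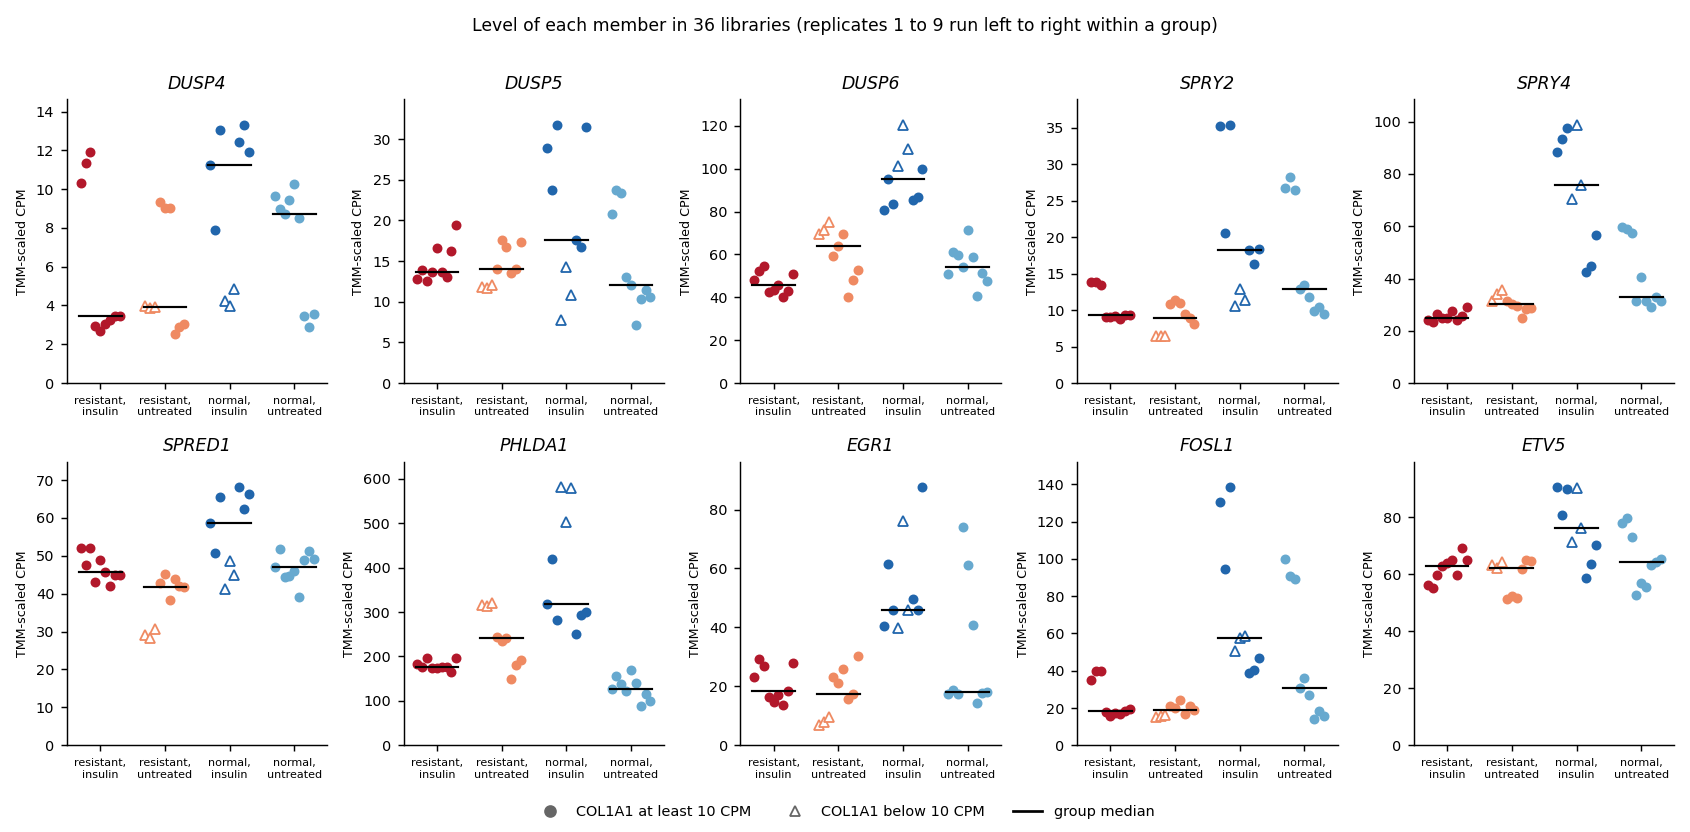
TMM-scaled CPM of each member in every library, by group on the horizontal axis, with replicates 1 to 9 running left to right, triangles for the 6 libraries with COL1A1 below 10 CPM and a bar at the group median. DUSP6 and PHLDA1 of all 9 insulin-stimulated libraries in normal medium lie above all 9 untreated ones, and DUSP4, SPRY2 and FOSL1 form steps of 3 libraries within groups.

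The same stimulation was then compared in insulin-resistant medium. No member was called in either direction, over 36 or over 30 libraries, and edgeR called 0% of all genes. At an unadjusted p under 0.05 there were 4490 of 17983 genes over 36 libraries and 964 of 18230 over 30. DESeq2 called 71 genes higher and 66 lower, with 0 members among them. The median log2 fold change of the members was 0.13 over 36 libraries, against 0.01 for all genes, and 0.03 over 30, against -0.00.

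DUSP6 had 40.1, 45.6 and 54.9 CPM in insulin-stimulated cells of the resistant medium, against 40.0, 64.2 and 75.2 CPM in untreated cells of that medium. The 3 highest untreated libraries were those with low COL1A1, at 69.8 to 75.2 CPM. The log2 difference was -0.36 ± 0.11, adjusted p = 0.0995, and -0.11 ± 0.11 over the 30 libraries, adjusted p = 0.934. PHLDA1 had 165.6, 176.6 and 196.1 CPM in stimulated cells, against 150.4, 241.3 and 319.5 CPM in untreated cells. Its log2 difference was -0.42 ± 0.16, adjusted p = 0.123, and -0.02 ± 0.11 over the 30 libraries, adjusted p = 0.992. The 9 stimulated libraries lay close together for PHLDA1, and the untreated ones spread over 3 levels, one per set.

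EGR1 had 13.5, 18.4 and 29.3 CPM in stimulated cells of the resistant medium, against 6.91, 17.3 and 30.2 CPM in untreated cells, and SPRY4 had 23.4, 25.0 and 29.2 CPM, against 25.0, 30.4 and 35.7 CPM. Neither difference passed, at a log2 change of 0.55 ± 0.28 for EGR1, adjusted p = 0.21, and -0.29 ± 0.17 for SPRY4, adjusted p = 0.283. Without the low-COL1A1 libraries these were 0.29 ± 0.27, adjusted p = 0.934, and -0.20 ± 0.23, adjusted p = 0.945. The log2 changes of the other 6 members lay between -0.10 for DUSP5 and 0.55 for DUSP4, with adjusted p from 0.112 for SPRED1 to 0.81 for DUSP5. For the 30 libraries they lay between -0.30 for DUSP5 and 0.59 for DUSP4, with adjusted p of 0.929 to 0.986. Mean levels, not adjusted for batch, went the other way over the 30 for DUSP4 and EGR1. DUSP4 was at 5.82 CPM stimulated and 5.98 CPM untreated, and EGR1 at 20.8 and 22.2 CPM. The number of calls here moved with the model, for the members and for all genes. In resistant medium 22 April, 11 April and 24 May hold 3, 6 and 0 stimulated and 4, 2 and 3 untreated libraries. Batch and stimulation are thus partly confounded, and a lack of calls does not show a lack of response. Without the batch term 2 members and 11.5% of all genes were called, 508 genes higher and 1555 lower. When only these groups entered the fit it was 4 members and 23.3% of all genes, 1205 higher and 2807 lower. In the fit of these groups alone SPRY2 and SPRED1 were higher, at 0.54 and 0.38, and SPRY4 and PHLDA1 lower, at -0.30 and -0.47. Leaving out resistant-medium untreated replicate 7 called DUSP6, at -0.43, and PHLDA1, at -0.49, and leaving out replicate 9 called DUSP6, at -0.40.

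The difference between the responses was tested as the interaction of medium and insulin, resistant minus normal. It passed for DUSP6, SPRY4 and PHLDA1, all below 0, where 6.22% of all genes were above 0 and 23.5% below. The log2 difference in response was -1.18 ± 0.15 for DUSP6, adjusted p = 7.83e-07, -1.13 ± 0.24 for SPRY4, adjusted p = 0.000367, and -2.05 ± 0.22 for PHLDA1, adjusted p = 1.07e-07. In the 30 libraries 4 members passed, where 12.4% of genes were above 0 and 9.37% below: DUSP5 at -0.93 ± 0.31, DUSP6 at -0.74 ± 0.14, SPRY4 at -0.85 ± 0.30 and PHLDA1 at -1.24 ± 0.15. In fits that left out 1 of these 30 libraries the SPRY4 call was lost in 19 and the DUSP5 call in 4. For EGR1 the difference was -0.63 ± 0.37, adjusted p = 0.206, and -0.82 ± 0.35 over the 30 libraries, adjusted p = 0.0956, so its responses in the media were not shown to differ. Without resistant-medium untreated replicate 9 it was -0.23 over 36 libraries. The other 6 members lay between -0.55 and 0.10 over 36 libraries, and of these the 5 that did not pass over 30 lay between -0.37 and -0.11 there. The 6 low-COL1A1 libraries lie in stimulated cells of normal medium and untreated cells of resistant medium. Both groups enter this contrast with a minus sign, so these libraries lie on the same side of it. The stromal list had a median interaction of 1.12 over 36 libraries and -0.15 over 30. Of the 18 hepatocyte markers 8 were below 0 and 0 above over 36 libraries, at a median of -0.55, and 9 above and 0 below over 30, at a median of 0.33. The part of either list in the members' values was not tested. With RLE factors 1840 genes were above 0 and 3252 below, against 1119 and 4233 with TMM. When sets of 3 were summed, 0 members passed, beside 0.0245% of all genes, with PHLDA1 at -1.98, adjusted p = 0.129. Within 22 April 0 passed, beside 0.0217% of all genes. Within 11 April 2 passed, DUSP6 at -1.27 and PHLDA1 at -2.18, beside 3.46% of all genes. The 24 May batch holds no stimulated library in resistant medium.

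Insulin-resistant medium was next compared with normal medium among insulin-stimulated cells. In this contrast the members moved most broadly: 8 of 10 were lower in the resistant medium and 0 higher, where 26.3% of all genes were lower and 12% higher. Without the 6 low-COL1A1 libraries, 9 of 10 were lower, all but DUSP4, where 18.2% of genes were lower and 17.8% higher. The member median was -0.92, against -0.01 for all genes, and -0.82 over the 30 libraries, against 0.01. RLE factors gave 3846 genes lower and 3118 higher, against 4733 and 2154 with TMM, and 7 members lower. This contrast shares its stimulated libraries with the insulin comparisons above, so these are not separate lines of evidence.

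DUSP6, SPRY4, PHLDA1 and EGR1 did not overlap between the groups, which held for 10.2% of all genes in that direction, and over the 30 libraries SPRY2 joined them, where it held for 11% of genes. SPRY4 stood at 23.4, 25.0 and 29.2 CPM in the resistant medium, against 42.4, 75.8 and 98.6 CPM in normal medium. Its log2 fold change was -1.57 ± 0.17, adjusted p = 1.28e-08, and -1.41 ± 0.22 over the 30 libraries. Its spread was narrow in the resistant medium (25.5 ± 1.84 CPM, SD, n = 9) and wide in normal medium (74.2 ± 22.1 CPM, n = 9). DUSP6 stood at 40.1, 45.6 and 54.9 CPM, against 80.9, 95.3 and 120.3 CPM, a log2 fold change of -1.03 ± 0.11, adjusted p = 7.96e-09, and -0.82 ± 0.10 over the 30 libraries. Both were called when sets of 3 were summed, beside 4.62% of all genes, SPRY4 at -1.44, adjusted p = 0.0247, and DUSP6 at -0.94, adjusted p = 0.0241, and were the only members to be so.

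PHLDA1 had a log2 fold change of -1.11 ± 0.16 in the resistant medium, adjusted p = 1.77e-06, which was -0.67 ± 0.11 over the 30 libraries, adjusted p = 1.79e-05. Its highest stimulated library in the resistant medium, at 196.1 CPM, lay below its lowest in normal medium, at 251.0 CPM. EGR1 had 20.8 ± 6.06 CPM in the resistant medium, against 54.7 ± 16.8 CPM in normal medium (SD, n = 9 each), a log2 fold change of -1.30 ± 0.27, adjusted p = 0.000257, and -1.26 ± 0.25 over the 30 libraries. FOSL1 fell by 1.49 ± 0.37 on the log2 scale, adjusted p = 0.00166, to 16.0, 18.5 and 40.1 CPM in the resistant medium, against 39.0, 57.6 and 138.4 CPM in normal medium, and over the 30 libraries its log2 fold change was -1.55 ± 0.45. The FOSL1 groups touched only through resistant replicates 2 and 3, at 39.9 and 40.1 CPM, and normal-medium replicate 7, at 39.0 CPM.

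SPRY2 fell by 0.81 ± 0.26, adjusted p = 0.0124, to 8.85, 9.39 and 13.9 CPM, against 10.6, 18.3 and 35.4 CPM in normal medium, and this call was lost without resistant-medium replicate 4, adjusted p = 0.0699. SPRY2 was at -1.01 ± 0.27 over the 30 libraries, adjusted p = 0.00423. ETV5 fell by 0.38 ± 0.08, adjusted p = 0.000211, and by 0.29 over the 30 libraries, a call lost in 5 of 30 fits that left out 1 library. The SPRED1 change of -0.26 ± 0.10, adjusted p = 0.0439, was lost in 34 of 36 fits that left out 1 library. Among the 30 libraries it was -0.34 ± 0.06, adjusted p = 3.43e-05. DUSP5 missed the threshold over 36 libraries, at -0.56 ± 0.24, adjusted p = 0.0669, and passed it over 30, at -0.82 ± 0.22, adjusted p = 0.00462. DUSP4 did not pass in either, at -0.47 and -0.71. Within 22 April 3 members were called, DUSP6, SPRY4 and EGR1, beside 6.01% of all genes, and within 11 April the same 3 and PHLDA1, beside 15.7% of all genes. The hepatocyte marker list moved in this contrast too, with 13 of 18 genes lower over 36 libraries and 8 lower and 3 higher over 30. The stromal list had 0 of 21 called and a median of 0.84 over 36 libraries and 0.09 over 30. The part of either in the members' values was not tested.

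Among untreated cells the resistant medium gave a divided picture. PHLDA1 was higher, and SPRY2, SPRY4, SPRED1 and FOSL1 were lower. Of the 10 members 1 was thus higher and 4 lower, where 13.3% of all genes were higher and 8.62% lower. With the 30 libraries 1 was higher and 3 lower, where 10.7% of genes were higher and 16% lower, with FOSL1 no longer called. Scaling by library totals gave 2457 genes higher and 761 lower, against 2385 and 1551 with TMM, and SPRY4 was lost. These untreated libraries are also those of the insulin comparisons. Of the hepatocyte markers 1 was higher and 5 lower, and over the 30 libraries 1 and 12, and their part in these values was not tested.

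PHLDA1 had 150.4, 241.3 and 319.5 CPM in resistant medium, against 88.8, 126.4 and 168.5 CPM in normal medium, and the ranges overlapped through resistant-medium replicate 7, the lowest of its group, and normal-medium replicates 2 and 5, at 155.4 and 168.5 CPM. The log2 fold change was 0.94 ± 0.15, adjusted p = 2.34e-05, and 0.57 ± 0.10 over the 30 libraries, adjusted p = 7.46e-05. SPRY2 had 6.46, 8.99 and 11.4 CPM in resistant medium, against 9.51, 12.9 and 28.2 CPM in normal medium, a log2 fold change of -0.90 ± 0.24, adjusted p = 0.0063, and -0.73 ± 0.27 over the 30 libraries, adjusted p = 0.0414. FOSL1 had 15.3, 19.0 and 24.3 CPM, against 14.0, 30.8 and 99.8 CPM. Normal-medium replicates 1 to 6 lay above every resistant-medium library, at 26.7 to 99.8 CPM, and replicates 7 to 9 lay at 14.0 to 18.4 CPM. The log2 fold change was -1.29 ± 0.35, adjusted p = 0.00719, and -1.18 ± 0.45 over the 30 libraries, adjusted p = 0.0533.

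SPRY4 fell by 0.44 ± 0.16, adjusted p = 0.045, a call lost in 20 of 36 fits that left out 1 library, and SPRED1 by 0.30 ± 0.10, adjusted p = 0.0244, lost without normal-medium replicate 2, adjusted p = 0.0506. Over the 30 libraries SPRY4 was at -0.56 ± 0.20, adjusted p = 0.0424, and SPRED1 at -0.16 ± 0.05, adjusted p = 0.0367. Without normal-medium replicate 2, over 36 libraries, 3 members were called in place of 5. DUSP6 was at 0.15 ± 0.10 and, over the 30 libraries, at -0.08 ± 0.09, and EGR1 at -0.66 ± 0.27, adjusted p = 0.0712, and -0.44 ± 0.25 over the 30 libraries, adjusted p = 0.207. DUSP4, DUSP5 and ETV5 did not pass, at -0.55, -0.01 and -0.13 over 36 libraries and -0.59, 0.11 and -0.17 over 30. EGR1 passed without resistant-medium replicate 9, at -0.88, adjusted p = 0.00998, and with DESeq2, at -0.67, adjusted p = 0.0463. Its set means were 17.8, 58.7 and 16.65 CPM in normal medium. In resistant medium they were 8.095 CPM in the low-COL1A1 set and 23.4 and 21.0 CPM in the others. The direction thus depended on the sets compared. No member was called when sets of 3 were summed, beside 2.37% of all genes, or within 22 April or 11 April, beside 3.32% and 2.04%. Within 24 May 2 were, PHLDA1 at 0.73 and EGR1 at -1.33, beside 9.4% of all genes. In the 30 libraries, SPRY2 was lost in 6, SPRY4 in 11, SPRED1 in 8 and PHLDA1 in 0 of 30 fits that left out 1 library.

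**Figure D2:**
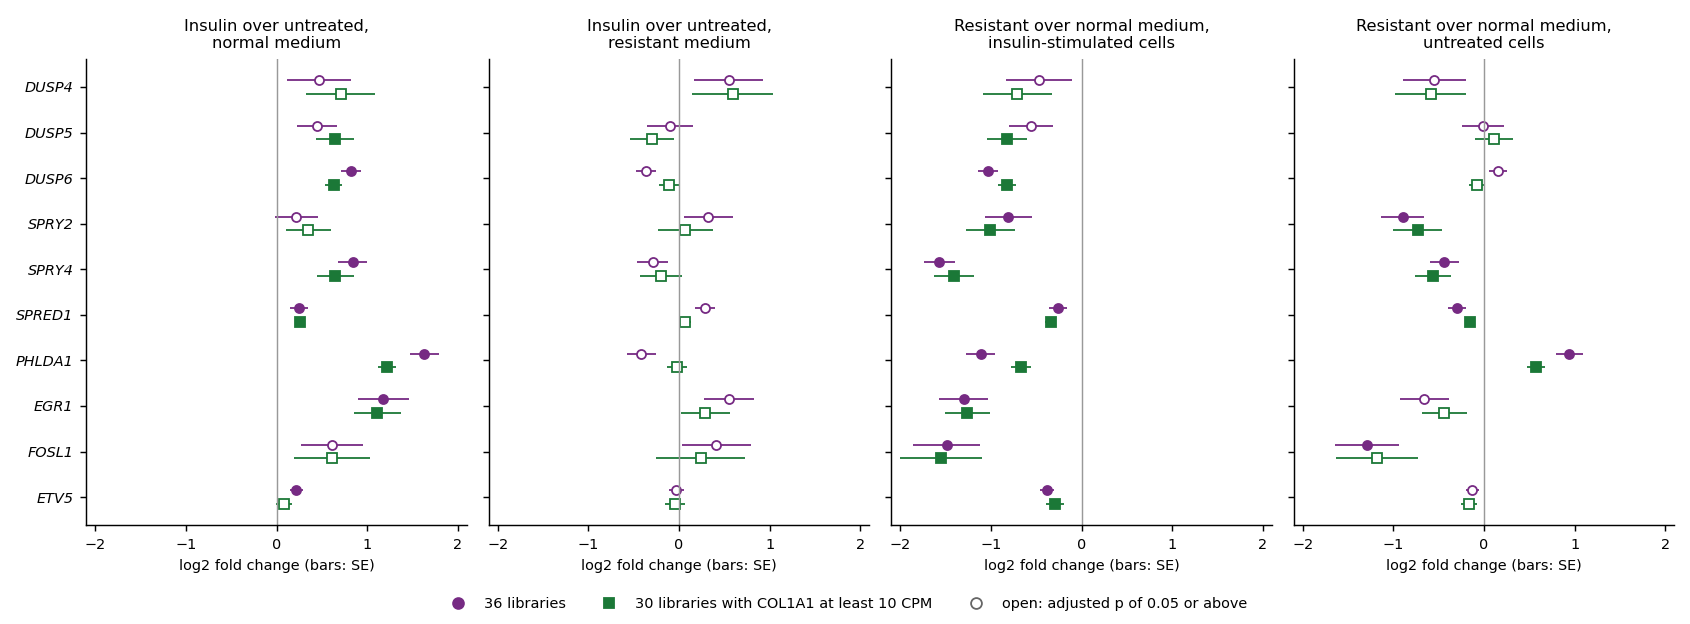
Log2 fold change with its SE for each member in 4 comparisons, from 36 libraries (circles) and from the 30 with COL1A1 of at least 10 CPM (squares), filled where the adjusted p was under 0.05. DUSP6, SPRY4, PHLDA1 and EGR1 lie right of 0 for insulin in normal medium and left of 0 for resistant medium in stimulated cells, and no symbol is filled for insulin in resistant medium.

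The 6 libraries with low COL1A1 can be set against each other, 3 of resistant-medium untreated cells against 3 of normal-medium stimulated cells, with medium and insulin changed together. Of the members 9 were lower in the resistant untreated libraries without overlap, all but DUSP5, where 27.4% of all genes were lower without overlap and 26.6% higher. EGR1 was at 6.91, 7.74 and 9.64 CPM in the resistant untreated libraries, against 39.7, 45.8 and 76.0 CPM in the normal stimulated ones. FOSL1 was at 15.3 to 16.0 CPM, against 50.5 to 58.5 CPM. Stromal transcripts were low but not all absent in these 6 libraries: COL1A2, VIM and DCN did not exceed 0.0788 CPM of the library total, and COL6A1, TAGLN, SPARC, LOX and FBN1 reached 82.0, 77.4, 72.9, 29.2 and 20.6 CPM. Their part in these differences was not tested. DUSP6 was at 69.8, 71.2 and 75.2 CPM in the resistant untreated libraries, against 101.2, 109.2 and 120.3 CPM, and in each group these 3 were above the group's other libraries. PHLDA1 followed the same order, with 313.9 to 319.5 CPM, against 502.2 to 580.9 CPM. SPRY2, at 6.46 to 6.53 CPM against 10.6 to 12.9 CPM, was instead below all other libraries of its group in both.

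Among the 30 libraries with COL1A1 of at least 10 CPM, DUSP4, SPRY2 and FOSL1 followed a split that crosses groups. FN1, the fibronectin gene, exceeded 25000 CPM in 12 libraries, a division chosen after its values were seen: normal untreated replicates 7 to 9, resistant untreated replicates 7 to 9 and resistant stimulated replicates 4 to 9. In these 12, DUSP4 was at 2.55 to 3.58 CPM, against 7.90 to 13.3 CPM in the other 18 libraries with COL1A1 of at least 10 CPM. DUSP4 and SPRY2 did not overlap between these classes, with the 12 lower, which held for 0.728% of all genes. FOSL1 was at 14.0 to 20.9 CPM in the 12, against 20.3 to 138.4 CPM in the 18, which overlapped slightly. SPRY2 reached 10.5 CPM at most in the 12 and was at 10.8 CPM or above in the 18. The split did not extend to the 6 libraries with COL1A1 below 10 CPM. FN1 was low in them, at 7050 to 12379 CPM, and DUSP4 was low as well, at 3.852 to 4.825 CPM. SPRY2 was at 6.46 to 12.9 CPM in these 6 and FOSL1 at 15.3 to 58.5 CPM. PHLDA1 spanned 88.8 to 196.1 CPM among the 12, against 121.5 to 420.4 CPM among the 18. ETV5 spanned 59.8 to 69.0 CPM, against 51.4 to 90.4 CPM, so both overlapped across the split. The 12 include no stimulated library in normal medium and 6 of the 9 in resistant medium, so among stimulated cells the split falls largely along the medium. They include untreated replicates 7 to 9 of normal medium, so insulin in normal medium and the interaction are unbalanced for the split too. Means of these replicates were the lowest set means of their group for DUSP6 (46.5 CPM), SPRY4 (31.15 CPM) and PHLDA1 (101.5 CPM). They were also the lowest for EGR1 (16.65 CPM), DUSP4, SPRY2 and FOSL1. For SPRED1 their mean was the highest (49.8 CPM), and for DUSP5 and ETV5 it lay between those of the other sets. The part of the split in the members' values was not tested. Resistant stimulated replicates 1 to 3, a single set, are among the 18. There DUSP4, at 10.3 to 11.9 CPM, DUSP5, SPRY2 and SPRED1 lay within the range of normal-medium stimulated cells. DUSP6, at 48.2 to 54.9 CPM, SPRY4, PHLDA1 and EGR1 lay below it, and FOSL1 and ETV5 lay partly below. What this difference between members rests on was not tested.

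**Figure D3:**
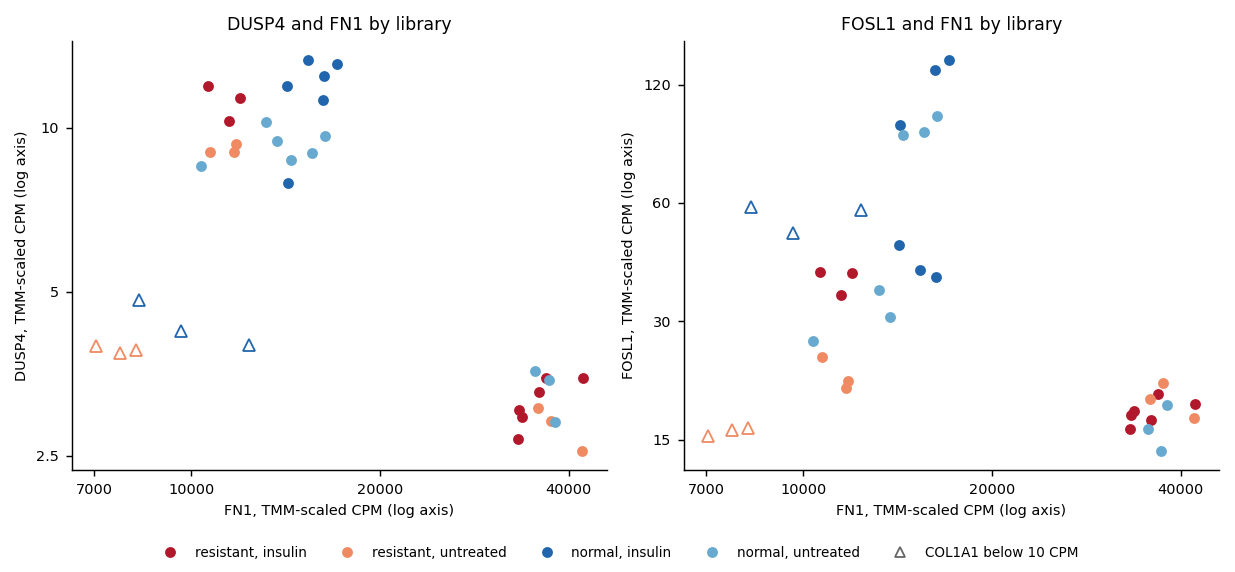
DUSP4 (left) and FOSL1 (right) against FN1, each in TMM-scaled CPM on log axes, 1 point per library, coloured by group, with triangles for the 6 libraries with COL1A1 below 10 CPM. The 12 libraries with FN1 above 25000 CPM sit together at DUSP4 of 2.55 to 3.58 CPM and FOSL1 of 14.0 to 20.9 CPM. No stimulated library of normal medium is among them.

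Other genes of the pathway were counted from 8 lists. For insulin in normal medium over 36 libraries, 2 of 7 other MAP kinase phosphatases, 4 of 8 other Sprouty, SPRED and receptor feedback inhibitors, 4 of 8 other AP-1 subunits, 8 of 21 other immediate early genes, 2 of 7 other ETS factors and 3 of 9 other ERK output genes were higher, and 0 of any of these was lower. Of 24 components of the cascade 4 were higher and 2 lower, and of 9 EGF receptor family genes and ligands tested 2 were higher and 2 lower. The list medians ran from -0.22 for EGF receptors and ligands to 0.41 for immediate early genes, against 0.03 for all genes, and these shares stand beside the 24.9% of all genes that were higher. In the 30 libraries the first 6 lists had 3, 3, 2, 9, 2 and 2 genes higher and, among the phosphatases, 1 lower. The cascade had 3 higher and 5 lower, and the EGF receptors and ligands 1 and 2. These counts stand beside 15.4% of all genes higher and 18.1% lower over the 30.

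The genes with the smallest adjusted p of each list were the following. ERRFI1, a direct inhibitor of the EGF receptor, had 174.6, 229.0 and 378.6 CPM in stimulated cells of normal medium, against 82.5, 106.0 and 140.7 CPM in untreated cells. Its log2 fold change was 1.22 ± 0.14, adjusted p = 1.59e-08. SPRY1, a Sprouty family inhibitor, rose by 0.66 ± 0.17 and LRIG1, which promotes receptor degradation, by 0.66 ± 0.08. Among the phosphatases DUSP16, which acts on JNK and p38, rose by 1.08 ± 0.16 and DUSP8 by 0.62 ± 0.11. Of the AP-1 subunits ATF3 rose by 1.19 ± 0.16, FOSB by 0.58 ± 0.15 and JUND by 0.28 ± 0.07.

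MYC, a driver of cell growth, had 267.7, 316.0 and 553.3 CPM in stimulated cells, against 153.3, 180.5 and 264.8 CPM in untreated cells, without overlap, as for 6.63% of all genes. It rose by 1.02 ± 0.13, TRIB1 by 1.27 ± 0.15, and MCL1, a survival factor, by 0.61 ± 0.07. EPHA2, a receptor tyrosine kinase transcribed under ERK control, rose by 1.30 ± 0.13, LIF by 0.81 ± 0.20 and UPP1 by 0.68 ± 0.13. The ETS factors ETS2 and ELK4 rose by 0.57 ± 0.10 and 0.33 ± 0.06. In the cascade PTPN11, the phosphatase SHP2, rose by 0.52 ± 0.04, RPS6KA3 by 0.43 ± 0.14 and MAP2K2 by 0.17 ± 0.05. Without the low-COL1A1 libraries most of these changes were smaller. JUND, LIF, MAP2K2 and RPS6KA3 did not pass there, at 0.09, 0.47, 0.10 and 0.04. SPRY1 was at 0.30, DUSP8 at 0.29, ETS2 at 0.29, DUSP16 at 0.65, ATF3 at 0.79 and MYC at 0.65, each still called. ERRFI1 was at 0.86, LRIG1 at 0.46, FOSB at 0.45, TRIB1 at 0.87, MCL1 at 0.47, EPHA2 at 0.93, UPP1 at 0.61, ELK4 at 0.25 and PTPN11 at 0.40, all called. In fits that left out 1 library JUND was lost in 25 of 36, MAP2K2 in 28 and RPS6KA3 in 28, and FOSB was lost without insulin-stimulated replicate 2, at 0.34, adjusted p = 0.0982.

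EREG, the EGF receptor ligand epiregulin, had the largest fold change of the genes named from these lists. It was at 64.8, 110.2 and 220.1 CPM in stimulated cells of normal medium, against 5.14, 7.41 and 13.4 CPM in untreated cells, a log2 fold change of 3.71 ± 0.25, adjusted p = 1.16e-12. ERBB3 and ERBB2, receptors of the same family, fell by 1.18 ± 0.16 and 0.42 ± 0.06. Among the 30 libraries EREG was at 3.25, ERBB3 at -1.61 and ERBB2 at -0.49. In untreated cells of resistant medium EREG was at 27.8, 39.0 and 70.4 CPM, above every untreated library of normal medium, which held for 3.84% of all genes. In stimulated cells of resistant medium it was at 28.7, 31.1 and 39.8 CPM, below every stimulated library of normal medium, which held for 10.2% of all genes.

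Between media, among stimulated cells, 1 of the other phosphatases was higher in resistant than in normal medium and 3 lower, where 12% of all genes were higher and 26.3% lower. The same counts were 1 and 4 for the feedback inhibitors, 0 and 5 for AP-1 subunits, 1 and 8 for immediate early genes, 0 and 3 for ETS factors, 0 and 3 for ERK output genes, 1 and 6 for the cascade and 0 and 1 for EGF receptors and ligands. Without the low-COL1A1 libraries 0 genes of the first 6 lists were higher, and 2 phosphatases, 4 feedback inhibitors, 4 AP-1 subunits, 7 immediate early genes, 4 ETS factors and 4 ERK output genes were lower. The cascade then had 2 higher and 6 lower and the EGF receptors and ligands 3 and 1, where 17.8% of all genes were higher and 18.2% lower. The log2 fold change was -1.99 ± 0.15 for ERRFI1, -1.66 ± 0.14 for MYC, -1.75 ± 0.17 for ATF3, -1.52 ± 0.18 for SPRY1, -1.91 ± 0.24 for EREG and -1.32 ± 0.14 for EPHA2. In the 30 libraries these were -1.62, -1.27, -1.36, -1.10, -1.39 and -0.94. LIF, MAP2K2, ERBB2 and ERBB3 did not pass, at -0.29, 0.04, 0.02 and 0.03. With the 30 libraries DUSP16 and JUND did not pass either, at -0.09 and -0.12, and ERBB3 was higher, at 0.51. The named genes were picked by their change in stimulated normal-medium cells, which this contrast shares, so their sign here is no independent observation.

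For insulin in resistant medium 0 genes of any of the 8 lists were called by edgeR. In untreated cells the resistant medium had 5 of the 21 other immediate early genes higher and 1 lower, 2 and 1 of the 7 phosphatases, 1 and 1 of the 8 feedback inhibitors, 0 and 2 of the 8 AP-1 subunits, 2 and 3 of the cascade, and 2 and 2 of the EGF receptors and ligands, beside 13.3% and 8.62% of all genes. Of the ETS factors 0 were called, and of the ERK output genes 1 was higher. With the 30 libraries the counts higher and lower were 4 and 2 for immediate early genes, 2 and 1 for phosphatases, 1 and 3 for feedback inhibitors, 0 and 0 for AP-1 subunits, 2 and 5 for the cascade, 2 and 2 for EGF receptors and ligands, 0 and 1 for ETS factors and 1 and 0 for ERK output genes, beside 10.7% and 16% of all genes. In the interaction 7 of the immediate early genes, 4 of the feedback inhibitors, 4 of the ERK output genes, 3 of the ETS factors, 2 of the phosphatases and 2 of the AP-1 subunits were below 0 and 0 above it, beside 23.5% of all genes below and 6.22% above. The cascade had 1 above and 4 below, and the EGF receptors and ligands 3 above and 2 below. Over the 30 libraries, where 9.37% of all genes were below 0 and 12.4% above, the counts below were 6, 2, 2, 2, 2 and 1 for the first 6 lists, with 1 above, the phosphatase DUSP9 at 0.65. The cascade then had 2 above and 2 below, and the EGF receptors and ligands 3 above and 1 below.

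**Figure D4:**
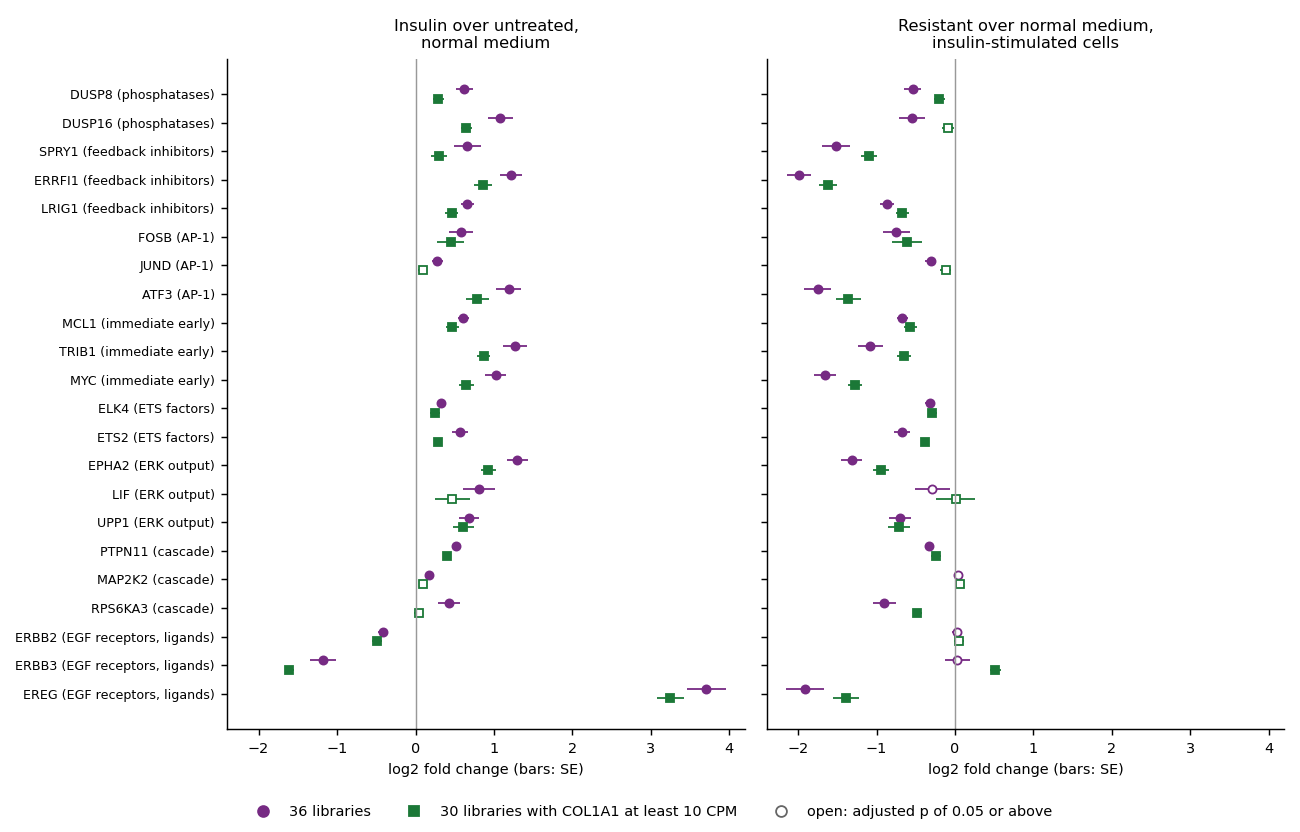
Log2 fold change with its SE for 22 genes of the pathway lists, insulin over untreated in normal medium (left) and resistant over normal medium in stimulated cells (right), from 36 libraries (circles) and 30 (squares), filled where the adjusted p was under 0.05. EREG stands at 3.71 on the left, and ERRFI1 at -1.99 is lowest on the right.

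Likeness of pattern was read as Pearson's r of log2 CPM over the 30 libraries, which share groups, sets and stromal content, and it is given as a description. The genes most like DUSP6 were ETS2 at 0.944, LRIG1 at 0.944 and PPTC7 at 0.916. Those most like PHLDA1 were FAM107B at 0.974, PLIN2, a lipid droplet coat protein, at 0.956 and SH2D5 at 0.956. Those most like EGR1 were FOS, an immediate early AP-1 subunit, at 0.923, NDE1 at 0.866 and CDKN1B at 0.856.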

How the data were processed

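Polyadenylated RNA was measured in 36 libraries, 9 in each of 4 groups. The authors deposited estimated counts per gene, not normalized, for 57771 Ensembl genes, and 15.5% of the values were not whole. STAR, Salmon and GRCh37 are named, per the submitters' processing notes, which give no versions or settings. The counts were rounded to whole numbers, symbols were matched for 51994 genes (90%), and members were taken by Ensembl identifier. Groups and replicate numbers came from the sample titles.

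edgeR 4.0.16 in R 4.3.3 was run with TMM factors, its filter by expression (17983 genes tested), a term for batch and the quasi-likelihood test over all 4 groups. Adjusted p-values are Benjamini-Hochberg over all genes tested, called under 0.05. The fit was repeated over the 30 libraries with COL1A1 of at least 10 CPM (18230 genes tested). Alternatives were DESeq2 1.42.0, RLE factors, library totals, no filter, no batch term, the groups compared alone, a replicate block, single batches, sets of 3 summed and each library left out. The model was tested on simulated data in which libraries were drawn independently. That test therefore cannot speak to p-values where libraries of a set resemble each other. Depth covers counting error only: the lowest member count was 121.

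The members and lists were chosen with earlier results of these data known. Named list genes were at most 3 per list, those of smallest adjusted p for insulin in normal medium among the genes called there. Same-numbered untreated and insulin-stimulated libraries of normal medium deviated together, with correlations of 0.192 to 0.509 over 9 pairs. Of these 9, only 2 correlated best with their own number. The labels do not say that a number marks a shared culture. The main fit therefore did not pair libraries, and the replicate block was an alternative. Over all 54 same-numbered pairs the range was -0.823 to 0.74, with 30 over 0.1. No replicate pair matched within sampling noise, the lowest chi-square per gene being 4.2 over 144 pairs. Library totals were counted before scaling. Promoters were read from RefSeq (GRCh38.p14), and no coordinate was moved between builds.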

Additional observations from a re-analysis of the deposited data

Results flagged for a closer look

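The interaction term of edgeR's quasi-likelihood test, which counts each library as independent, marked results for a closer look. It passed below 0 for 3 members over 36 libraries and 4 over 30, beside 23.5% and 9.37% of all genes. With sets of 3 summed no member passed, beside 0.0245% of all genes over 36 libraries and 0.366% over 30. In fits that left out 1 of the 30 libraries the SPRY4 call was lost in 19 and the DUSP5 call in 4. On the log2 scale, resistant minus normal medium, PHLDA1 stood at -2.05 over 36 libraries and -1.24 over 30. DUSP6 stood at -1.18 and -0.74, and SPRY4 at -1.13 and -0.85. DUSP5 passed over the 30 libraries, at -0.93. All 3 values that passed over 36 libraries were nearer 0 without the 6 libraries with low COL1A1, and the part of those libraries in the values was not tested beyond leaving them out. In 40 tests for a single library far from the rest of its group, 0 passed. Such a test can miss libraries that stand apart as a set of 3. EGR1 in untreated normal-medium replicates 4 to 6 is an example, so the groups were not shown to be uniform.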

How the results depend on the processing

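Values are log2 fold changes or counts of members called, with the share of all genes called by the same fit in brackets. For insulin in resistant medium, 2 members were called with no batch term (11.5%), 4 with only the groups compared (23.3%) and 3 with the replicate block (14.9%), and leaving out 1 library gave 0 to 2. DUSP5 there changed sign, to 0.03 with no batch term, 0.06 with only the groups compared, 0.02 with the block, 0.07 within 11 April and 0.06 within 22 April. ETV5 there went to 0.05 with no batch term, 0.02 with sets of 3 summed and 0.01 within 11 April. For resistant medium in untreated cells DUSP5 changed sign, to 0.04 with library totals, 0.04 with the block, 0.58 within 24 May and 0.11 over the 30 libraries, and ran from -0.13 to 0.10 with 1 library left out. DUSP6 there was -0.08 over the 30 libraries, and EGR1 was 0.05 within 11 April. The interaction of DUSP4 was -0.20 with no batch term, -0.12 with the block, -0.10 with sets summed and -0.12 over the 30 libraries. Over the 30 libraries it was -0.19 for SPRED1 and -0.28 for SPRY2. Within 11 April it was 0.08 for ETV5 and 0.41 for FOSL1, and 0.41 for FOSL1 within 22 April. With 1 library left out it ran from -0.04 to 0.30 for DUSP4, from -0.01 to 0.29 for SPRY2 and from -0.40 to 0.03 for FOSL1. For insulin in normal medium, within 11 April, ETV5 was -0.07, FOSL1 -0.11 and SPRY2 -0.43, and within 24 May DUSP4 was -0.66 and EGR1 -0.24.

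With sets of 3 summed, 1 member was called for insulin in normal medium (3.48%), 2 for medium in stimulated cells (4.62%), 0 for medium in untreated cells (2.37%) and 0 for the interaction (0.0245%), and over the 30 libraries 1 (5.28%), 1 (4.45%), 0 (2.94%) and 0 (0.366%). Within 11 April the first 3 of these counts were 2 (4.71%), 4 (15.7%) and 0 (2.04%), and over the 30 libraries all 4 were 3 (10.4%), 4 (15.5%), 0 (2.95%) and 1 (2.71%). Within 22 April they were 2 (5.16%), 3 (6.01%), 0 (3.32%) and 0 (0.0217%), and over the 30 libraries 5 for medium in stimulated cells (16.5%), 0 in untreated cells (6.07%) and 1 for the interaction (4.17%). Within 24 May 2 were called for medium in untreated cells (9.4%). These fits hold fewer libraries. With 1 library left out, medium in untreated cells gave 3 to 5 calls, and over the 30 libraries 1 to 5, with 1 or 2 without any of normal untreated replicates 1, 2, 3 and 5 or resistant untreated replicates 6 to 9. The interaction over the 30 libraries gave 2 to 4, with 2 without normal untreated replicate 5 or 6 or normal insulin replicate 1. The replicate block left 1 call over the 30 libraries for medium in untreated cells, PHLDA1 (23.4%). The labels do not say that libraries of the same number share a culture. Between media the block added EGR1 in untreated cells, at -0.75, and lost SPRED1 in stimulated cells, at -0.21. Over the 30 libraries the block raised the calls of the interaction to 6 (18.8%).

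Leaving genes unfiltered moved the median of all genes to 0.13 for medium in stimulated cells and to 0.16 for the interaction, and summing sets moved it to -0.11 for insulin in normal medium. The cause of these changes was not tested.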
